A study of Rattus norvegicus with 12 samples.

Results

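Heat shock proteins and other molecular chaperones were followed at the RNA level in whole rat lung. The genes were chosen by name: small heat shock proteins and HSP70, HSP110 and mitochondrial chaperonin genes (symbols beginning Hspa, Hspb, Hspd, Hspe or Hsph and a further letter or digit), J-domain co-chaperones (Dnaja, Dnajb and Dnajc and a number) and protein disulfide isomerases (Pdia and a number), each with at least 10 counts in at least 4 of the 12 libraries. Of 74 matching symbols among 32883 genes in the table, 68 met the count rule, and all 68 entered the tests. The 6 left out, Hspb3, Hspb9, Dnajb7, Dnajb8, Dnajc5b and Dnajc5g, had 0 to 20 counts in all libraries together. The naming rule does not take in the HSP90 genes, and it takes in by spelling alone Hspbp1 and Hspbap1, which code for proteins that bind heat shock proteins, and Hspb11, whose protein is better known as IFT25, a part of the transport particle of cilia.

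The libraries formed 3 groups of 4, all from wild-type rats sampled at a labelled time of 25 days. MCT-Fer-1 rats had received monocrotaline, a pyrrolizidine alkaloid that damages pulmonary vessels in rats, and were then dosed for 10 days with ferrostatin-1, an inhibitor of ferroptosis that traps lipid radicals. MCT-vehicle rats had received monocrotaline and 10 days of the vehicle, and for Control rats neither agent is stated, so that monocrotaline and vehicle cannot be told apart against Control. The sources used here do not give strain, sex, age, doses or the day from which the time counts. Nor do they say that each library came from its own rat, and the p-values therefore reflect only how far these samples spread.

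Chaperones keep proteins from misfolding and help them to fold. HSP70 proteins bind exposed hydrophobic stretches in cycles driven by ATP, J-domain proteins bring the clients and start the ATP hydrolysis, and HSP110 proteins exchange the nucleotide. Small heat shock proteins hold unfolding proteins without using ATP, the mitochondrial chaperonin folds them in a closed chamber, and in the endoplasmic reticulum protein disulfide isomerases form and rearrange disulfide bonds of secreted proteins. The cytosolic genes are classical targets of the transcription factor HSF1, which binds heat shock elements, and those of the endoplasmic reticulum are targets of the unfolded protein response, in part through the endoplasmic reticulum stress element.

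Promoter sequences are shown because these 2 elements are known sites of the 2 stress pathways, although most of the genes searched carried neither. RefSeq promoters (GRCr8) were at hand for 53 of the 68 genes, and the 250 bases before each start were searched on both strands. Pdia3, Pdia6 and Hspa1b were among the genes without a promoter at hand and were not searched. A heat shock element core, GAANNTTC, was present in 12 of the 53 (22.6%), against 7.23% of all 33469 promoters of that length. Its longer form, the core followed by NNGAA or preceded by TTCNN, was found in Hspa8, Hspd1, Hspe1 and Hsph1 (7.55% of the 53, against 0.663% of all promoters). The stress element of the endoplasmic reticulum, CCAAT and CCACG with 9 bases of any kind between them, lay in Hspa5 and Dnajc3 (3.77%, against 0.0657%). The following stretches of 100 bases are written 5′ to 3′ on the strand of the gene, with the element in capitals. The first carries the core, the second and the third the longer heat shock element, and the last pair the endoplasmic reticulum element. In Dnajb1 the core ends 4 bases before the start, where the search stopped. A longer form running past the start could therefore not be seen.
Dnajb1, chr19:41431142-41431241, minus strand: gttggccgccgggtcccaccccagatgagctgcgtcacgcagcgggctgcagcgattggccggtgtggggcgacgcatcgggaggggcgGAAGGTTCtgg
Hspa8, chr8:50080414-50080513, plus strand: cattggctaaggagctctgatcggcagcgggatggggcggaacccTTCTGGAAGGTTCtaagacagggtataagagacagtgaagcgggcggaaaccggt
Hsph1, chr12:10427268-10427367, plus strand: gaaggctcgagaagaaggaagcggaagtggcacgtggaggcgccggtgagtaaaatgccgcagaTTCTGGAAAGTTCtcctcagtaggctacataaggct
Hspa5, chr3:38452916-38453015, plus strand: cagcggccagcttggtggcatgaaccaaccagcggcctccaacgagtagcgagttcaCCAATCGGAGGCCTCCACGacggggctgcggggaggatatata
Dnajc3, chr15:102432493-102432592, plus strand: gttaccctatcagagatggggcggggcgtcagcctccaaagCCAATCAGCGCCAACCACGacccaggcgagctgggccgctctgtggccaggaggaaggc

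Hspd1 and Hspe1, which code for the barrel and the lid of the mitochondrial chaperonin, lie head to head, and 1 shared heat shock element stands 230 bases before Hspd1 and 53 bases before Hspe1. The other genes with the core were Dnaja1, Dnajb6, Dnajc18, Hspa9, Hspb1, Hspb6 and Hspb8. A match describes the letters of the window and does not show that a factor binds there.

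Libraries held 11601929 to 70627239 counts (MCT-Fer-1), 13654695 to 24016262 counts (MCT-vehicle) and 16640022 to 18229992 counts (Control). Values below are CPM, each gene's counts scaled by library size with TMM factors, and differences are log2 fold changes from edgeR's quasi-likelihood test with Benjamini-Hochberg adjustment over 15257 genes, called below an adjusted p of 0.05. Surfactant and other lung epithelial markers summed to 31400 to 46700 CPM in MCT-Fer-1, 31800 to 42000 CPM in MCT-vehicle and 43200 to 45800 CPM in Control, as the tissue label has it. MCT-vehicle 2 and Control 4 stood apart by heart-muscle transcripts, with 10 markers summing to 417 CPM in MCT-vehicle 2, 260 CPM in Control 4 and 16.4 to 76.2 CPM in the other libraries, and results are given without them where that changes a call. Macrophage markers summed to 1260 to 1870 CPM in MCT-vehicle against 897 to 985 CPM in Control (8 of 10 tested were called higher), cell-cycle markers to 366 to 435 CPM against 153 to 211 CPM (10 of 10 higher) and endothelial markers to 2720 to 3530 CPM against 4910 to 5370 CPM (5 of 9 lower). Erythroid markers summed to 653 to 979 CPM in MCT-vehicle against 1430 to 2190 CPM in Control (5 of 5 lower), mast-cell markers to 617 to 1350 CPM against 383 to 430 CPM (6 of 8 higher and 2 lower) and skeletal-muscle markers to 14.2 to 19.5 CPM against 7.19 to 14.5 CPM (2 of 4 tested higher). No marker of these lists was at 0 in every library, and in bulk tissue fewer cells of a type and less RNA per cell cannot be told apart.

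The first comparison asked how chaperone RNA differed between lungs of monocrotaline rats given vehicle and Control lungs. Most members differed little: 60 of 68 had a log2 fold change within 0.5 of 0, and the median was 0.03, beside 0.02 over all genes tested. In MCT-vehicle 5 members rose (Pdia3, Pdia6, Dnajb11, Dnajc9 and Dnajb3) and 5 fell (Pdia5, Dnajb1, Dnajb2, Dnajb9 and Hspb11). The 10 called are 14.7% of the members, against 18.6% of all genes tested (10.3% higher and 8.28% lower), a share that is not above the background. Groups did not overlap in 15 members (22.1%), against 21.5% of all genes. Together the members took 0.555 ± 0.0269% of all counts in MCT-Fer-1, 0.570 ± 0.0281% in MCT-vehicle and 0.561 ± 0.0194% in Control (SD, n = 4 each).

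By family, the calls lay among the protein disulfide isomerases (3 of 4), the DNAJB genes (5 of 11), the DNAJC genes (1 of 26) and the Hspb genes (1 of 6). None was made among 13 HSP70 and HSP110 genes, 4 DNAJA genes, the 2 chaperonin genes and the 2 binding factors. In these 4 families 4 members had an unadjusted p under 0.05, all in the family of HSP70 and HSP110 genes; over all families 23 members did (33.8%, against 32.1% of all genes). By DESeq2, 2 HSP70 genes, Hspa8 and Hspa12b, were called lower. The isomerases summed to 1102 to 1259 CPM in MCT-Fer-1, 1200 to 1249 CPM in MCT-vehicle and 973.2 to 1159 CPM in Control, and MCT-vehicle and Control did not overlap. Sums of the HSP70 and HSP110 genes did overlap, at 1765 to 2232 CPM in MCT-Fer-1, 1838 to 2142 CPM in MCT-vehicle and 1999 to 2246 CPM in Control, and so did those of the DNAJC genes, at 998.1 to 1032 CPM in MCT-Fer-1, 999.5 to 1050 CPM in MCT-vehicle and 956.1 to 1009 CPM in Control.

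**Figure D1:**
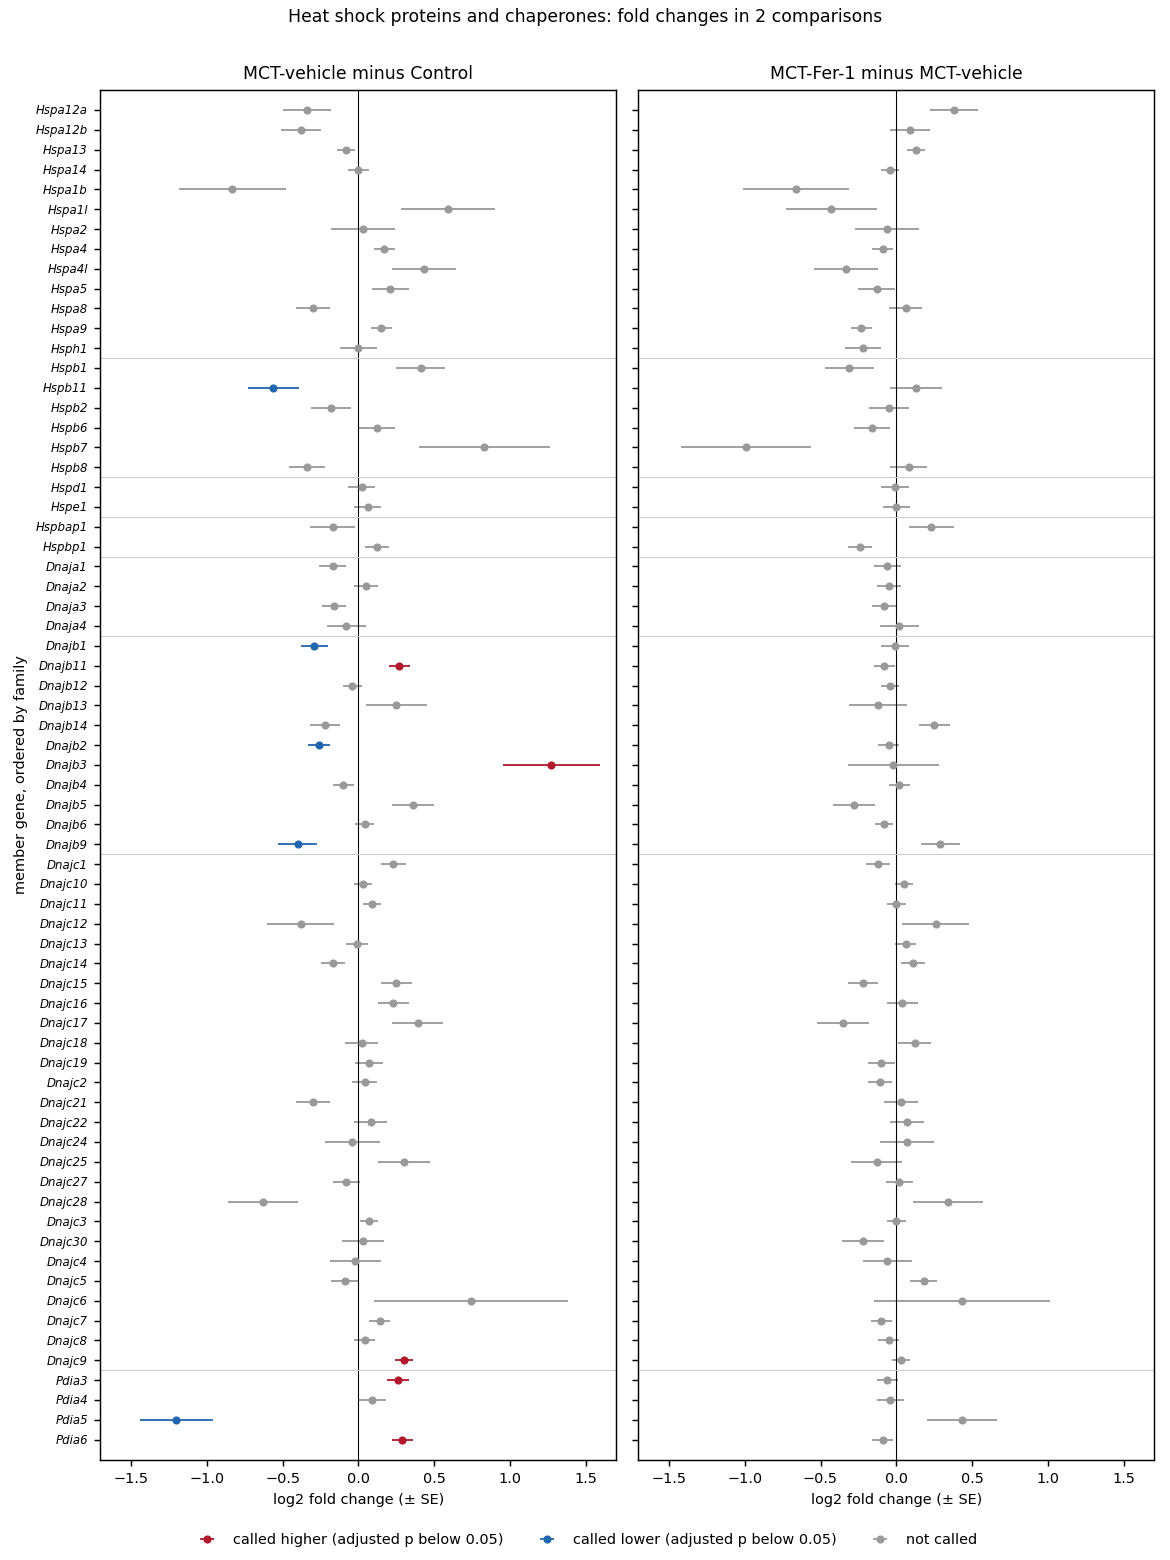
Log2 fold change with its SE (x axis) for each of the 68 members (y axis, ordered by family) for MCT-vehicle minus Control and for MCT-Fer-1 minus MCT-vehicle. In the first comparison 5 members are called higher and 5 lower, and in the second all are uncalled and 66 of 68 lie within 0.5 of 0.

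In the endoplasmic reticulum the isomerases Pdia3 and Pdia6 and the co-chaperone Dnajb11 rose in MCT-vehicle, and the isomerase Pdia5 and the co-chaperone Dnajb9 fell. Pdia3 (ENSRNOG00000015018), the ERp57 enzyme that works with calreticulin and calnexin on glycoproteins, had 679, 660, 650 and 676 CPM in MCT-vehicle libraries 1 to 4, against 493, 606, 567 and 564 CPM in Control libraries 1 to 4. All MCT-vehicle values lay above all Control values, and the rise was 0.26 ± 0.07 on the log2 scale (SE; edgeR adjusted p = 0.0253). The call was lost in 5 of 12 fits that left out 1 library, namely MCT-vehicle 1 or 4 or Control 1, 3 or 4 (edgeR adjusted p 0.0551 to 0.059), and without MCT-vehicle 2 and Control 4 together (0.0895). Pdia3 overlaps Catsper2 in RefSeq, and the strand used in counting is not given, so their reads cannot be told apart; the Catsper2 row had 0.45 ± 0.21 (edgeR adjusted p = 0.154).

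Pdia6 (ENSRNOG00000050197), the P5 isomerase that associates with BiP, had 350, 349, 343 and 333 CPM in MCT-vehicle, against 269, 316, 273 and 269 CPM in Control. Here too the groups did not overlap, and Control 2 was the Control library nearest to MCT-vehicle. The difference was 0.29 ± 0.07 (edgeR adjusted p = 0.0141), and it was 0.26 ± 0.09 without MCT-vehicle 2 and Control 4 (edgeR adjusted p = 0.0899). Pdia4, the ERp72 isomerase, had 183 to 212 CPM in MCT-vehicle and 175 to 220 CPM in Control, and these ranges overlapped (log2 fold change 0.09 ± 0.09, edgeR adjusted p = 0.545).

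Pdia5 (ENSRNOG00000032327), an isomerase of the same family with lower CPM, went the other way. It had 8.2, 11, 11.6 and 7.72 CPM in MCT-vehicle, against 27.9, 16.9, 21.4 and 22.3 CPM in Control. Each MCT-vehicle library was below each Control library, and the log2 fold change of -1.20 ± 0.24 was the lowest among the members (edgeR adjusted p = 0.00416). This call held in all 22 alternatives. RefSeq places 2 non-coding genes across Pdia5, which without a known strand cannot be told apart from it.

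Among J-domain proteins of the endoplasmic reticulum, Dnajb11 (ENSRNOG00000001803), the ERdj3 co-chaperone that brings nascent chains to BiP, had 90.1, 85.9, 85.3 and 97.4 CPM in MCT-vehicle, against 68.1, 77.8, 74.1 and 77.2 CPM in Control. The groups stood apart, with a rise of 0.27 ± 0.07 (edgeR adjusted p = 0.0136) that held in all 22 alternatives. Dnajb9 (ENSRNOG00000004006), the ERdj4 co-chaperone that keeps the stress sensor IRE1 in check through BiP, had 29.5, 31.6, 34.9 and 39.9 CPM in MCT-vehicle, against 40.7, 47, 45.2 and 46.4 CPM in Control. Its fall of 0.40 ± 0.13 runs opposite to that of Dnajb11 (log2 fold change -0.40, edgeR adjusted p = 0.0438). The call was lost in 7 of 12 fits without 1 library (MCT-Fer-1 2, MCT-vehicle 1, 2 or 3, or Control 2, 3 or 4; edgeR adjusted p 0.0521 to 0.108) and without MCT-vehicle 2 and Control 4 (0.181).

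BiP itself, Hspa5 (ENSRNOG00000018294), the HSP70 of the endoplasmic reticulum, had 529, 546, 542 and 618 CPM in MCT-vehicle, against 455, 540, 468 and 465 CPM in Control. The ranges met at Control 2, and the difference did not pass the test (log2 fold change 0.21 ± 0.12, edgeR adjusted p = 0.236). Dnajc3, the p58IPK co-chaperone, had 58.1 to 60.4 CPM against 55.3 to 58.4 CPM, and Dnajc10, the ERdj5 disulfide reductase, 156 to 170 CPM against 152 to 172 CPM, with log2 fold changes of 0.07 ± 0.06 and 0.03 ± 0.06. Hspa5 and Dnajc3, the genes found with the endoplasmic reticulum stress element, were thus not among those called. Pdia3 and Pdia6 had no promoter at hand, and genes outside the naming rule were not searched. Whether these carry the element is therefore not known.

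Partners of the same compartment that the naming rule does not cover were read from a list of 35 genes of endoplasmic reticulum folding and the unfolded protein response, of which 33 were tested. In MCT-vehicle 5 rose and 0 fell, 15.2% of the list beside 18.6% of all genes, and the median log2 fold change was 0.09, beside 0.02 over all genes. P4hb, the founding disulfide isomerase, averaged 706 ± 35.5 CPM in MCT-vehicle and 557 ± 35.3 CPM in Control (SD, n = 4 each; log2 fold change 0.34 ± 0.07, edgeR adjusted p = 0.00417). Calr, the lectin chaperone calreticulin, averaged 830 ± 10.8 CPM in MCT-vehicle and 645 ± 40.4 CPM in Control (0.37 ± 0.09, edgeR adjusted p = 0.0108). Sdf2l1, a partner of Dnajb11, had the highest log2 fold change of the list, 0.85 ± 0.16 (edgeR adjusted p = 0.00327), with 33.1 ± 7.69 CPM in MCT-vehicle and 18.3 ± 2.44 CPM in Control.

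Fkbp10, a prolyl isomerase that acts on procollagen, rose by 0.42 ± 0.10 (edgeR adjusted p = 0.0107) and Uggt1, the folding sensor of glycoproteins, by 0.26 ± 0.08 (edgeR adjusted p = 0.0301). Serpinh1, the collagen chaperone, had 0.29 ± 0.10 (edgeR adjusted p = 0.0609; called without MCT-vehicle 2 or 3 or Control 2, 0.0234 to 0.0494, and by DESeq2, 0.0295), and Hsp90b1 and Hyou1, the HSP90 and HSP110 proteins of the endoplasmic reticulum, had 0.10 ± 0.07 and 0.13 ± 0.08. Without MCT-vehicle 2 and Control 4, 2 genes of the list were called, P4hb and Sdf2l1. Uggt1 also lost its call without MCT-vehicle 2 or 3 or Control 1, 2 or 4 (edgeR adjusted p 0.0519 to 0.0837). Beside these rises the macrophage markers were higher in MCT-vehicle, as given above, and plasma-cell markers summed to 703 to 833 CPM in MCT-vehicle against 671 to 756 CPM in Control (1 of 6 tested was called higher); their part in the result was not tested.

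**Figure D2:**
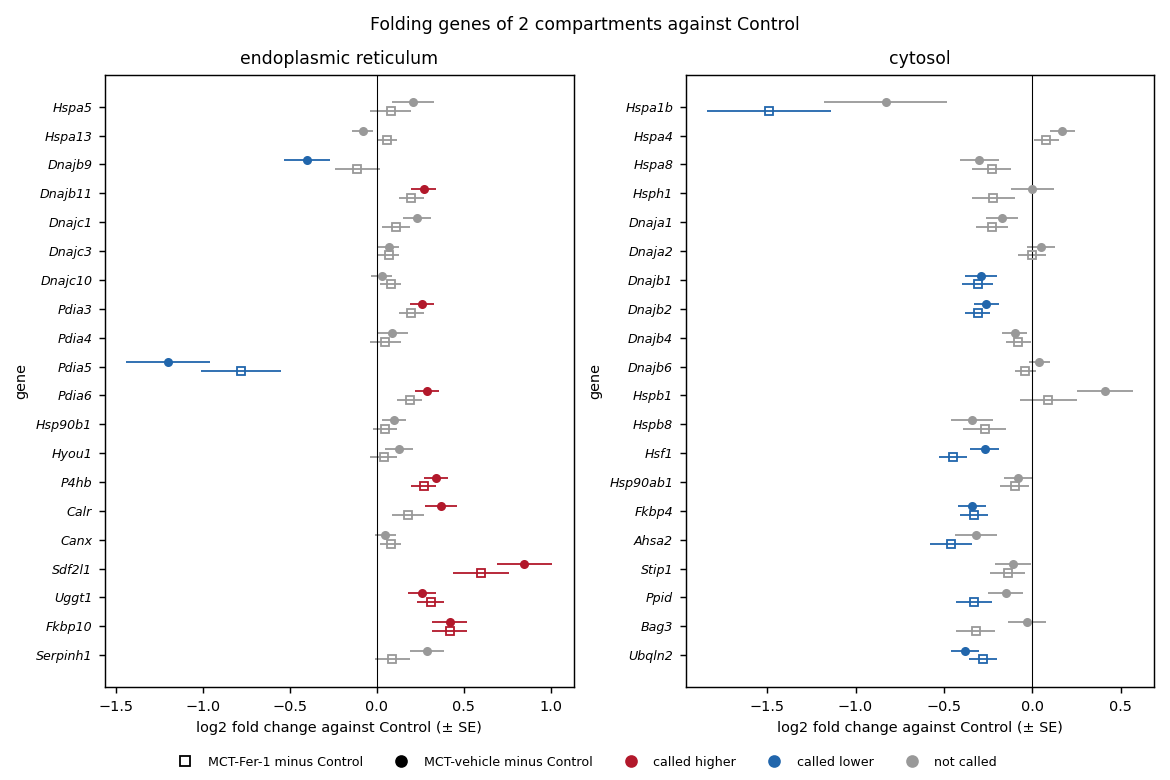
Log2 fold change against Control with its SE (x axis) for 20 folding genes of the endoplasmic reticulum and 20 of the cytosol (y axis), members and list genes, as open squares for MCT-Fer-1 and filled circles for MCT-vehicle. Sdf2l1 lies at 0.60 in MCT-Fer-1 and 0.85 in MCT-vehicle and Pdia5 at -0.78 in MCT-Fer-1 and -1.20 in MCT-vehicle; the genes drawn were picked with their values known, and every list gene called is among them.

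In the cytosol the co-chaperones Dnajb1 and Dnajb2 fell in MCT-vehicle, while no HSP70 or HSP110 gene was called. Dnajb1 (ENSRNOG00000021824), the stress-inducible HSP40 co-chaperone, had 60.3, 61.5, 51.9 and 69.1 CPM in MCT-vehicle, against 83.4, 74.8, 71.2 and 68.6 CPM in Control. The 2 groups met at MCT-vehicle 4 and Control 4, and the log2 fold change was -0.29 ± 0.09 (edgeR adjusted p = 0.0307). It was the only 1 of the 12 genes with the heat shock element core to be called, and these had a median log2 fold change of 0.02 (-0.34 to 0.41). The call was lost in 5 of 12 fits without 1 library (edgeR adjusted p 0.0546 to 0.0799). These left out MCT-vehicle 1, 2 or 3 or Control 1 or 2. The call was also lost without MCT-vehicle 2 and Control 4 (0.0598) and in a fit of only the groups compared.

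Dnajb2 (ENSRNOG00000019506), a co-chaperone that sorts ubiquitinated clients to the proteasome, had 68.1, 62.8, 61.3 and 62.2 CPM in MCT-vehicle, against 78.2, 79.9, 72.5 and 73.4 CPM in Control. The groups did not overlap, and the gene fell by 0.26 ± 0.07 (log2 fold change -0.26, edgeR adjusted p = 0.0163). The adjusted p was 0.0533 without Control 2 and 0.0553 without MCT-vehicle 2 and Control 4.

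Hspa8 (ENSRNOG00000034066), the constitutive cytosolic HSP70, had 607, 727, 690 and 782 CPM in MCT-vehicle, against 871, 933, 824 and 822 CPM in Control. Although all MCT-vehicle values were lower, the difference did not pass the test (log2 fold change -0.30 ± 0.11, edgeR adjusted p = 0.0758). It was called without MCT-Fer-1 1 (edgeR adjusted p = 0.0397), in a fit of only the groups compared (0.0498) and by DESeq2 (0.0338). Hspa1b (ENSRNOG00000050647), a stress-inducible HSP70, had 6.11, 4.8, 3.8 and 5.93 CPM in MCT-vehicle, against 18.3, 6.86, 6.02 and 5.56 CPM in Control. Control 1 alone was high; the log2 fold change was -0.83 ± 0.35 (edgeR adjusted p = 0.117) and -0.25 ± 0.20 without that library. Hspa1b shares nearly all its sequence with Hspa1a, which was not analysed here, so its counts are uncertain. Hspa4, an HSP110, had 269 to 282 CPM in MCT-vehicle and 221 to 272 CPM in Control, with a higher but uncalled value (0.17 ± 0.07, edgeR adjusted p = 0.125). Hsph1, also an HSP110, had 81.2 to 123 CPM against 98.4 to 120 CPM, with a log2 fold change of 0.00 ± 0.12.

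Of the list of 25 tested genes of HSF1 and the cytosolic HSP90 system, 3 fell and 0 rose in MCT-vehicle, 12% of the list beside 18.6% of all genes, with a median log2 fold change of -0.08. Hsf1, which codes for the heat shock transcription factor itself, averaged 33.3 ± 3.25 CPM in MCT-vehicle and 40 ± 2.12 CPM in Control (log2 fold change -0.27 ± 0.08, edgeR adjusted p = 0.0377). Fkbp4, an immunophilin that works with HSP90 on steroid receptors, had -0.34 ± 0.08 (edgeR adjusted p = 0.0117) and Ubqln2, a shuttle between HSP70 and the proteasome, -0.38 ± 0.08 (edgeR adjusted p = 0.00579). Hsp90ab1, the constitutive HSP90, had -0.08 ± 0.08 (edgeR adjusted p = 0.517). The Hsp90aa1 row held 0 to 34 counts per library and was not tested. How reads were assigned to this row is not known, so it is not taken as a measure of the gene's RNA. Without MCT-vehicle 2 and Control 4 Ubqln2 was the only gene of the list called, and Hsf1 lost its call without MCT-Fer-1 3, MCT-vehicle 2 or 3 or Control 1, 2 or 4 (edgeR adjusted p 0.0516 to 0.0954).

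Dnajc9 (ENSRNOG00000006619), a J-domain protein that chaperones histones H3 and H4 in the nucleus, had the smallest adjusted p of the members that rose. It had 41.9, 38.5, 40 and 40.1 CPM in MCT-vehicle, against 34.9, 31.1, 31.8 and 32.7 CPM in Control. The spread within each group was small beside the gap, and the rise was 0.30 ± 0.06 (edgeR adjusted p = 0.00603), called in all 22 alternatives. The cell-cycle markers were higher in the same libraries, as given above; their part in the result was not tested. Dnajc9 overlaps Fam149b1 in RefSeq, whose row had -0.09 ± 0.08 (edgeR adjusted p = 0.474).

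Dnajb3 (ENSRNOG00000023172), a J-domain gene with few counts, had 4.14, 1.95, 1.19 and 2.57 CPM in MCT-vehicle, against 1.1, 1.05, 1.08 and 0.887 CPM in Control. Every MCT-vehicle value was above Control, with MCT-vehicle 3 close to it, and the log2 fold change of 1.27 ± 0.32 was the highest among the members (edgeR adjusted p = 0.0161). The adjusted p was 0.0514 without MCT-vehicle 2 and Control 4. The gene lies inside the Ugt1a cluster in RefSeq, so reads cannot be assigned to it with certainty without the strand. Ugt1a5, of that cluster, rose as well (0.45 ± 0.12, edgeR adjusted p = 0.0161).

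**Figure D3:**
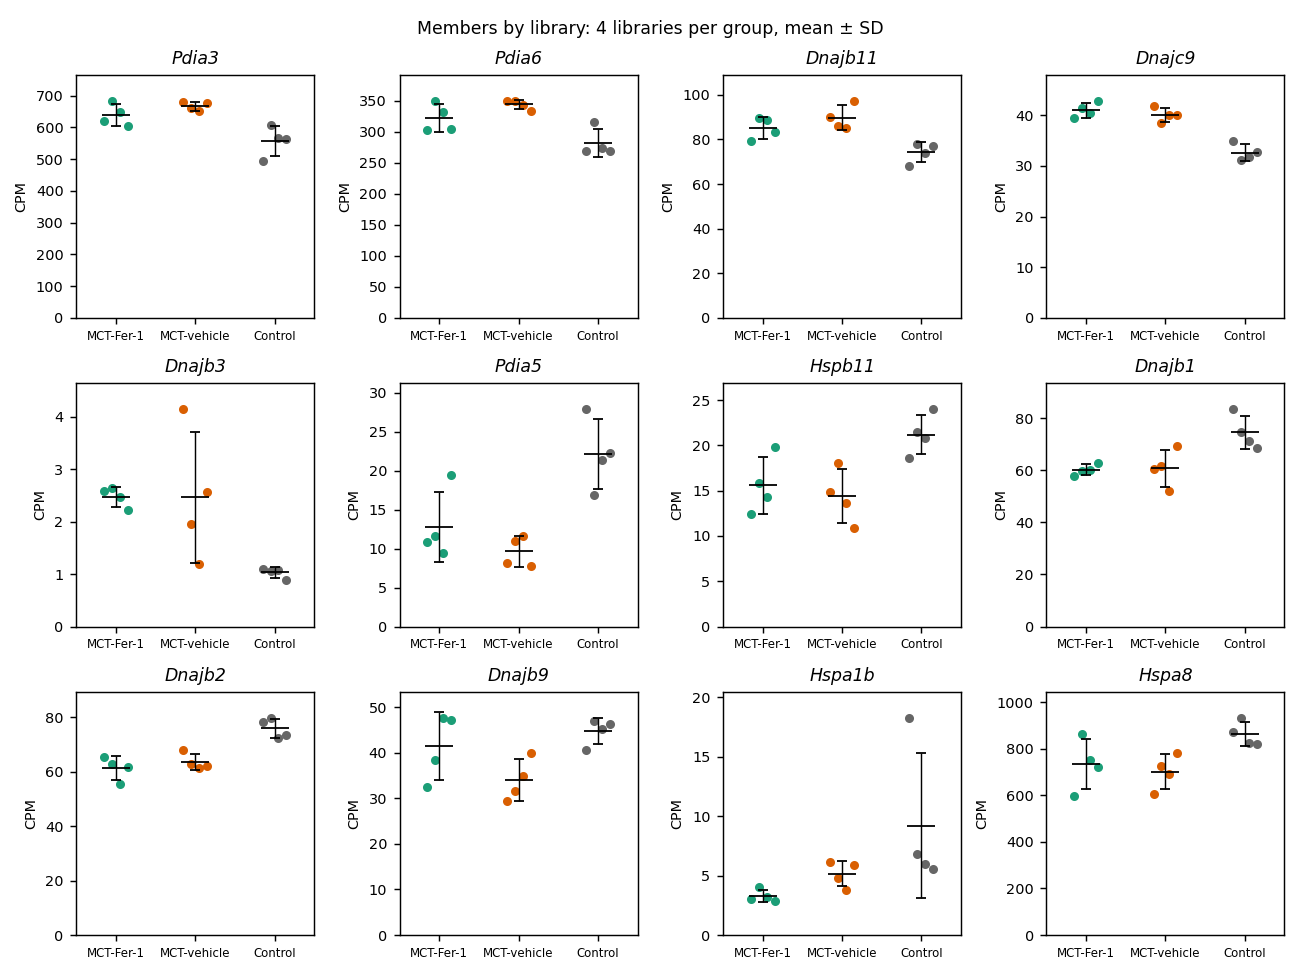
CPM (y axis, from 0) of 12 members in each library by group (x axis), with the mean and SD of 4 libraries. Dnajc9 had 38.5 CPM or more in every MCT-Fer-1 and MCT-vehicle library and 34.9 CPM or less in Control, and Hspa1b is high in Control 1 alone.

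The Hspb genes gave 1 call among 6, and it was that of Hspb11, which is among them by spelling alone. Hspb11 (ENSRNOG00000010241) had 14.9, 18, 13.6 and 10.9 CPM in MCT-vehicle, against 18.6, 21.5, 20.8 and 24 CPM in Control, a fall without overlap (log2 fold change -0.56 ± 0.17, edgeR adjusted p = 0.0332). The call was lost without MCT-vehicle 1, 3 or 4 or Control 2, 3 or 4 (edgeR adjusted p 0.055 to 0.0926). Hspb1, the HSP27 protein that also guards actin filaments, had 161, 113, 141 and 190 CPM in MCT-vehicle, against 126, 86.2, 107 and 137 CPM in Control. The ranges overlapped, and the difference of 0.41 ± 0.16 on the log2 scale was not called (edgeR adjusted p = 0.0969). It was called without MCT-vehicle 2 (0.52 ± 0.15, edgeR adjusted p = 0.0316) and without MCT-vehicle 2 and Control 4 (0.62 ± 0.14, edgeR adjusted p = 0.0212). Smooth-muscle markers summed to 1090 to 1820 CPM in MCT-vehicle and 808 to 1430 CPM in Control; their part was not tested.

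Hspb8, which works with BAG3 in selective autophagy, had 45.3 to 57.8 CPM in MCT-vehicle and 55.7 to 69.2 CPM in Control (log2 fold change -0.34 ± 0.12, edgeR adjusted p = 0.0565), and it was called without MCT-vehicle 1 or Control 1 (edgeR adjusted p = 0.0303 and 0.0402), in a fit of only the groups compared (0.0369), after thinning (0.0436) and by DESeq2 (0.0309). Hspb6, the HSP20 protein of muscle, had 20 to 27.7 CPM and 20 to 24.5 CPM, with 0.12 ± 0.12 (edgeR adjusted p = 0.514). Hspb7, a chaperone of heart and skeletal muscle, had 5.59, 22.5, 5.44 and 10.9 CPM in MCT-vehicle, against 6.15, 4.59, 4.58 and 9.76 CPM in Control, so that the highest library of each group was the one highest in heart-muscle markers. The log2 fold change of 0.83 ± 0.43 did not pass the test (edgeR adjusted p = 0.202) and was 0.51 ± 0.30 without those libraries and 0.22 without MCT-vehicle 2 alone.

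MCT-vehicle 2 was also high in motile-cilia markers, with a sum of 488 CPM, against 147 to 269 CPM in the other MCT-vehicle libraries and 184 to 234 CPM in Control. Dnajb13, a J-domain protein of the radial spoke of cilia and sperm tails, had 11.8, 17.5, 15.1 and 8.4 CPM in MCT-vehicle and 9.45 to 13 CPM in Control. Hspa4l, an HSP110 gene strongly expressed in testis, had 12.1, 26.4, 16 and 13.4 CPM in MCT-vehicle and 11.7 to 14.4 CPM in Control. Both were highest in MCT-vehicle 2, and neither was called (edgeR adjusted p = 0.403 and 0.179).

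**Figure D4:**
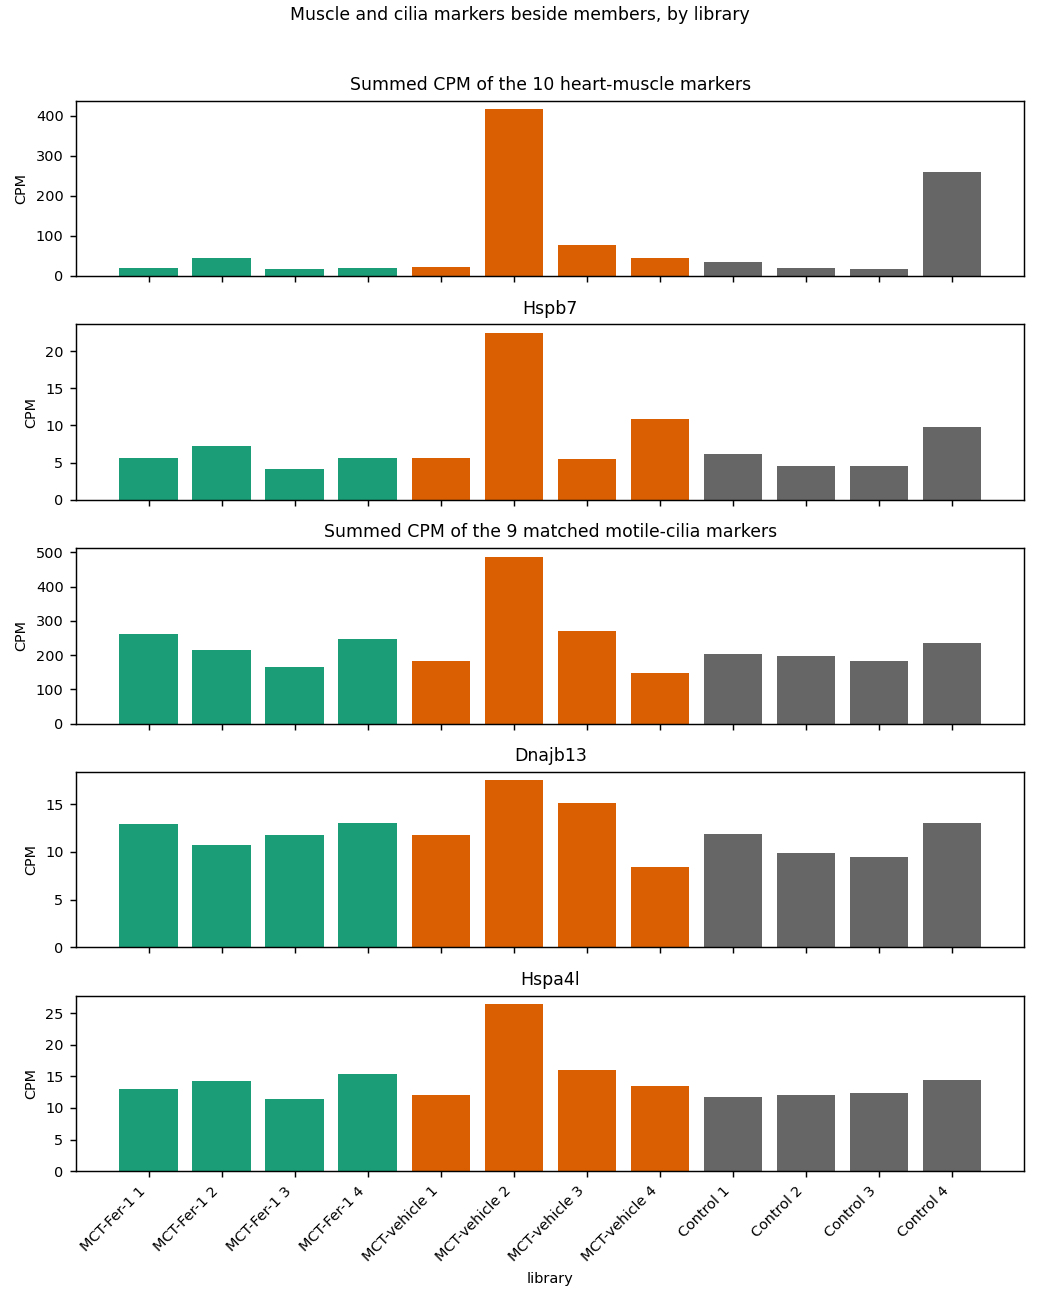
Summed CPM of heart-muscle and motile-cilia markers and CPM of Hspb7, Dnajb13 and Hspa4l (y axes, from 0) in each of the 12 libraries (x axis). MCT-vehicle 2 is the highest library in all 5 panels, with 417 CPM of heart-muscle markers and 22.5 CPM of Hspb7.

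Mitochondrial chaperones showed no call. Hspd1, the HSP60 barrel, had 143, 167, 152 and 185 CPM in MCT-vehicle, against 140, 166, 171 and 161 CPM in Control, and Hspe1, its HSP10 lid, had 37.7 to 45.7 CPM against 35.5 to 42 CPM. The 2 genes had log2 fold changes of 0.02 ± 0.09 and 0.06 ± 0.09. Their full RefSeq spans overlap each other, although the starts used for the promoters lie on either side of the shared element. Reads of the shared stretch cannot be told apart without the strand. Hspa9, the mitochondrial HSP70 mortalin, had 0.15 ± 0.07 (edgeR adjusted p = 0.191). Of 12 tested genes of a list on mitochondrial folding and of 14 of the cytosolic chaperonin TRiC and prefoldin 0 were called by edgeR, with 2 and 1 at an unadjusted p under 0.05. DESeq2 called 0 and 1. Of TRiC and prefoldin edgeR called 1 gene with upper-quartile factors, with a replicate block, after thinning and without MCT-Fer-1 2. Of the mitochondrial list 1 gene was called higher without MCT-vehicle 3 and 1 lower without Control 1.

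Hspa12b, an HSP70 relative known from endothelial cells, had 81.6, 77.9, 73 and 91.3 CPM in MCT-vehicle, against 115, 100, 110 and 97 CPM in Control. The groups did not overlap, but the difference did not pass the test (log2 fold change -0.38 ± 0.13, edgeR adjusted p = 0.0596). It did pass without MCT-Fer-1 1 or 2 (edgeR adjusted p = 0.0152 and 0.0306), in a fit of only the groups compared (0.0137), after thinning to the smallest total (0.0405) and by DESeq2 (0.0301). Endothelial markers were lower in the same libraries, as given above; their part in the result was not tested. Hspa12a, a divergent HSP70, had 25.6 to 36.6 CPM in MCT-vehicle and 26.8 to 48.7 CPM in Control (edgeR adjusted p = 0.174), with a log2 fold change of -0.34 ± 0.16. That was -0.48 ± 0.14 and called without Control 1 (edgeR adjusted p = 0.0358), and -0.13 ± 0.16 without MCT-vehicle 2 and Control 4 (edgeR adjusted p = 0.647). The DNAJA genes, general HSP70 co-chaperones, had log2 fold changes of -0.17 to 0.05. Of the remaining DNAJC genes, Dnajc13, an endosomal protein, had 94.1 to 115 CPM against 92.7 to 110 CPM (-0.01 ± 0.07). The 25 DNAJC genes other than Dnajc9 were not called by edgeR with all libraries. Their log2 fold changes ran from -0.63 in Dnajc28 to 0.74 in Dnajc6, which had 0 CPM in Control 4. DESeq2 called Dnajc28 and Dnajc21. edgeR called Dnajc21 without MCT-Fer-1 1 or MCT-vehicle 1, Dnajc1 without MCT-vehicle 2 and Dnajc14 without Control 1.

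The second comparison asked how chaperone RNA differed with ferrostatin-1 in monocrotaline rats. By edgeR 0 of 68 members were called in MCT-Fer-1 against MCT-vehicle, as were 0% of all genes tested, and DESeq2 called 0 members and 229 genes. At an unadjusted p under 0.05 there were 7 members (10.3%), against 12% of all genes. The median log2 fold change was -0.04, beside -0.01 over all genes, and 66 of 68 lay within 0.5 of 0. Groups did not overlap in Dnajb14 and Hspbp1 (2.94% of members, against 6.1% of all genes).

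Hspa9, which helps to pull proteins into the mitochondrial matrix, had the smallest p. It had 105, 111, 102 and 106 CPM in MCT-Fer-1, against 119, 139, 130 and 110 CPM in MCT-vehicle. The ranges overlapped at MCT-vehicle 4, and the log2 fold change was -0.23 (95% interval -0.40 to -0.07, edgeR adjusted p = 0.268). Hspbp1, a nucleotide exchange factor of HSP70, had 35, 30.3, 31.6 and 33.5 CPM in MCT-Fer-1, against 37.3, 36.5, 37 and 43.1 CPM in MCT-vehicle (-0.24, interval -0.43 to -0.05, edgeR adjusted p = 0.297). Dnajb14, a J-domain protein of the endoplasmic reticulum membrane, had 11.5, 10.7, 10.9 and 12.7 CPM in MCT-Fer-1, against 9.44, 9.97, 9.99 and 9.24 CPM in MCT-vehicle (0.25, interval 0.01 to 0.48, edgeR adjusted p = 0.364).

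Dnajb9 had 32.4, 38.5, 47.7 and 47.2 CPM in MCT-Fer-1, against the 29.5 to 39.9 CPM of MCT-vehicle given above (log2 fold change 0.29, interval 0.01 to 0.58, edgeR adjusted p = 0.381). The first pair of MCT-Fer-1 libraries lay within the MCT-vehicle range and the second pair above it. Hspa12a had 34.8 to 46.2 CPM in MCT-Fer-1 and 25.6 to 36.6 CPM in MCT-vehicle (0.38 ± 0.16, edgeR adjusted p = 0.381), and Hspa13, a microsomal HSP70, 66.9 to 73.9 CPM and 61.4 to 67.7 CPM (0.13 ± 0.06, edgeR adjusted p = 0.385). Hspb7 had 4.08 to 7.23 CPM in MCT-Fer-1, and its log2 fold change of -0.99 ± 0.43 became -0.37 ± 0.27 without MCT-vehicle 2 and Control 4; heart-muscle markers summed to 16.6 to 44.6 CPM in MCT-Fer-1 and 21.0 to 417 CPM in MCT-vehicle, and their part was not tested.

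For other members named in the first comparison the difference between MCT-Fer-1 and MCT-vehicle is given with its 95% interval. Hspa5 had 436, 646, 524 and 433 CPM in MCT-Fer-1, with a log2 difference from MCT-vehicle of -0.13 (95% interval -0.40 to 0.14), which was -0.27 ± 0.09 without MCT-Fer-1 2 (edgeR adjusted p = 0.314). Hspa8 had 598, 862, 752 and 721 CPM, with 0.06 (-0.18 to 0.31). Both genes were highest in MCT-Fer-1 2. Intervals were -0.22 to 0.10 for Pdia3, -0.26 to 0.07 for Pdia6, -0.23 to 0.08 for Dnajb11, -0.21 to 0.18 for Dnajb1 and -0.21 to 0.20 for Hspd1. Those of 2 other members were wider. The interval was -0.10 to 0.96 for Pdia5, whose log2 fold change of 0.43 was 0.14 without MCT-Fer-1 4. It was -0.71 to 0.67 for Dnajb3, whose log2 fold change of -0.02 was 0.36 ± 0.27 without MCT-vehicle 1. Of the 4 lists of other folding genes, none had a gene called in this comparison by edgeR or DESeq2.

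The third comparison set MCT-Fer-1 against the same Control libraries, so that its values share their controls with the first. In MCT-Fer-1 2 members rose (Dnajc9 and Dnajb3) and 4 fell (Pdia5, Dnajb1, Dnajb2 and Hspa1b). These 6 are 8.82% of the members, against 10.8% of all genes tested (6.67% higher and 4.12% lower), and groups did not overlap in 7 members (10.3%), against 19.1% of all genes. The median log2 fold change was 0.01, beside 0.00 over all genes.

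Dnajc9 had 39.5, 41.5, 40.4 and 42.9 CPM in MCT-Fer-1, all above the 31.1 to 34.9 CPM of Control (log2 fold change 0.33 ± 0.06, edgeR adjusted p = 0.00502). Cell-cycle markers summed to 370 to 505 CPM in MCT-Fer-1 against 153 to 211 CPM in Control (10 of 10 higher), and their part was not tested. Dnajb2 had 65.5, 62.9, 55.5 and 61.8 CPM, all below the 72.5 to 79.9 CPM of Control (-0.31 ± 0.07, edgeR adjusted p = 0.0101). Both calls held in all 22 alternatives.

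Dnajb1 had 57.8, 59.8, 60.1 and 62.9 CPM in MCT-Fer-1, below all Control values (-0.31 ± 0.09, edgeR adjusted p = 0.0371). Its call was lost in 7 of 12 fits without 1 library, each MCT-Fer-1 library and Control 1, 2 or 3 (edgeR adjusted p 0.0543 to 0.099), and without MCT-vehicle 2 and Control 4 (0.0606). Dnajb3 had 2.58, 2.63, 2.46 and 2.21 CPM in MCT-Fer-1, more even than in MCT-vehicle by SD (0.188 and 1.25 CPM), and rose by 1.25 ± 0.32 (edgeR adjusted p = 0.0267). That call was lost without MCT-Fer-1 2 or 3 or any 1 Control library (edgeR adjusted p 0.0557 to 0.0776). It was also lost without MCT-vehicle 2 and Control 4 (0.0801). After thinning to the smallest total neither Dnajb1 nor Dnajb3 was called. Ugt1a5 had 0.44 (edgeR adjusted p = 0.0279).

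Hspa1b had 3.01, 4.01, 3.21 and 2.85 CPM in MCT-Fer-1, each below every Control library, whose values were 18.3, 6.86, 6.02 and 5.56 CPM. The log2 fold change of -1.49 ± 0.35 was called (edgeR adjusted p = 0.0181). Without Control 1 it was -0.91 ± 0.20 and still called (edgeR adjusted p = 0.0189), and without MCT-Fer-1 3 it was not (0.0521). Between MCT-Fer-1 and MCT-vehicle, whose values were 3.8 to 6.11 CPM, the difference was -0.66 (95% interval -1.46 to 0.13) and not called.

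Pdia5 had 10.8, 11.6, 9.41 and 19.4 CPM in MCT-Fer-1, where only MCT-Fer-1 4 reached the Control range of 16.9 to 27.9 CPM (log2 fold change -0.78 ± 0.23, edgeR adjusted p = 0.0493). The call was lost in 10 of 12 fits without 1 library (edgeR adjusted p 0.0518 to 0.136). Only the fits without MCT-Fer-1 4 or Control 2 kept it. The call was also lost without MCT-vehicle 2 and Control 4 (0.115), with upper-quartile factors and with no filter on low counts. Nor did it hold by limma, in a fit of only the groups compared or with a replicate block. Members called in the first comparison only had here 0.20 ± 0.07 for Pdia3 (edgeR adjusted p = 0.107), 0.19 ± 0.07 for Pdia6 (0.109), 0.20 ± 0.07 for Dnajb11 (0.0816), -0.11 ± 0.13 for Dnajb9 (0.659) and -0.43 ± 0.17 for Hspb11 (0.118). Without Control 2 Pdia6 was called (edgeR adjusted p = 0.0471), and without MCT-Fer-1 4 so was Hspb11 (0.0488). DESeq2 called Pdia3 (0.19, DESeq2 adjusted p = 0.0377) and Dnajb11 (0.19, DESeq2 adjusted p = 0.046). None of the 5 was called between MCT-Fer-1 and MCT-vehicle, so a difference between these groups is not shown. Hspa12b had 112, 67.2, 86.1 and 80.5 CPM in MCT-Fer-1, against 97 to 115 CPM in Control, and was called lower only without the high library MCT-Fer-1 1 (-0.44 ± 0.10, edgeR adjusted p = 0.0187).

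In the list of HSF1 and the cytosolic HSP90 system 5 of 25 genes fell and 0 rose in MCT-Fer-1 against Control (20%, against 10.8% of all genes). Hsf1 averaged 29.3 ± 1.53 CPM in MCT-Fer-1 and 40 ± 2.12 CPM in Control (SD, n = 4 each; -0.45 ± 0.08, edgeR adjusted p = 0.00407), called in all 22 alternatives. The others were Ahsa2, a relative of the HSP90 activator Aha1 (-0.46 ± 0.12), Fkbp4 (-0.33 ± 0.08), Ppid, a cyclophilin of HSP90 complexes (-0.33 ± 0.10), and Ubqln2 (-0.28 ± 0.08), with edgeR adjusted p of 0.0201 to 0.0464. Each of these 4 lost its call without some 1 library: Ahsa2 without MCT-Fer-1 1, 3 or 4 or Control 1 or 4 (edgeR adjusted p 0.0557 to 0.0749), Fkbp4 without Control 2 or 4 (0.0502 to 0.0613), Ppid in 10 of 12 such fits, all but those without MCT-vehicle 2 or 3 (0.0510 to 0.120), and Ubqln2 without MCT-Fer-1 1 or 2 or any Control library (0.0530 to 0.108).

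In the endoplasmic reticulum list 4 of 33 rose and 0 fell (12.1%, against 10.8% of all genes). Those that rose were P4hb (0.27 ± 0.07), Sdf2l1 (0.60 ± 0.16), Uggt1 (0.31 ± 0.08) and Fkbp10 (0.42 ± 0.10), with edgeR adjusted p of 0.0179 to 0.0314. Without MCT-Fer-1 4 the list had 3 higher and 1 lower. Without MCT-vehicle 2 and Control 4 these counts were 0 for the endoplasmic reticulum list and 2 lower for the HSF1 list. Calls were also lost for P4hb and Uggt1 without MCT-Fer-1 2 or 3 or Control 1 or 4 (edgeR adjusted p 0.0579 to 0.0685), for Sdf2l1 without MCT-Fer-1 2, 3 or 4 or Control 1, 3 or 4 (0.0530 to 0.0946) and for Fkbp10 without MCT-Fer-1 2 or Control 2 (0.0562 to 0.0589).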

How the data were processed

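Unnormalised counts of reads were deposited, 1 row for each rat gene with an Ensembl identifier and a symbol; the authors' group means (other columns) were not used. Which aligner, annotation, strand setting and build were used is not given in the sources used here. Groups came from the sample titles. Members and gene lists were chosen with earlier results of these data known.

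Genes were kept by filterByExpr in edgeR 4.0.16 (R 4.3.3), leaving 15257 genes with 99.9% of counts, scaled by TMM and fitted to all 12 libraries with 1 coefficient per group (robust quasi-likelihood, 9 residual degrees of freedom). SE is the log2 fold change divided by the square root of F, and 95% intervals use the t distribution. A floor of 3 counts corresponds to 0.0419 to 0.258 CPM and covers counting error only. The fit was also run on simulated counts drawn with the spread estimated from these data. The simulated counts held no outlying library, so that run does not bear on calls that rest on 1 library.

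Named members were those called, the 5 with the smallest p per comparison, the 2 most abundant per family and 20 chosen by function; others were named after their values were seen, among them Dnajb13, Hspa4l, Dnajc28 and Dnajc6. Overlaps between genes come from RefSeq (GRCr8), where 67 of 68 members matched by symbol. Of the named members, Dnajb9, Dnajc3, Dnajc13, Hspa12a and Hspb6 also overlap other genes there, with the same limit on their reads. Every pair of libraries differed by more than counting noise (chi-square over its degrees of freedom at least 10.7). Alternatives used DESeq2 1.42.0 and limma 3.58.1. They changed size factors, the filter on low counts, the test, the samples fitted, a replicate block and depth, and left out libraries; the longer heat shock element was added after seeing the data.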

Additional observations from a re-analysis of the deposited data

Results flagged for a closer look

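In 6 of 99 sets of 4 libraries examined for the named members, 1 library stood far from the other 3 by Dixon's ratio, where chance gives about 1 in 20. Dnajb4, an HSP40 co-chaperone, had 75.9 CPM in MCT-Fer-1 2, against 91.2 to 92.6 CPM in the other MCT-Fer-1 libraries. Hspbp1 had 43.1 CPM in MCT-vehicle 4, against 36.5 to 37.3 CPM in the others of its group. Hspa1b had 18.3 CPM in Control 1, against 5.56 to 6.86 CPM in the other Control libraries. Control 2 was high both for Hspa5, with 540 CPM against 455 to 468 CPM, and for Pdia6, with 316 CPM against 269 to 273 CPM. Hspb6 had 24.5 CPM in Control 4, a library high in heart-muscle markers, against 20 to 20.6 CPM in the other Control libraries. In MCT-vehicle 2, the library highest in these markers, it had 23.1 CPM, within the 20 to 27.7 CPM of its group.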

How the results depend on the processing

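No called value changed sign under the 22 alternatives. Without MCT-vehicle 2 and Control 4, the libraries with heart-muscle transcripts, 5 members were called in MCT-vehicle against Control (4 shared with the 10 reported) among 1675 genes, and 3 in MCT-Fer-1 against Control among 978 genes; fewer samples were fitted. In MCT-Fer-1 against MCT-vehicle the members called were 0 in every alternative, while the genes called were 229 with DESeq2 and 1 when only the groups compared were fitted. DESeq2 called 15 members in MCT-vehicle against Control and 9 in MCT-Fer-1 against Control. Leaving out 1 library at a time gave, for MCT-vehicle against Control, 6 to 13 members (6 without Control 2) and 2021 to 2860 genes. For MCT-Fer-1 against MCT-vehicle it gave 0 to 0 members and 0 to 41 genes (41 without MCT-vehicle 3). For MCT-Fer-1 against Control it gave 2 to 6 members (2 without MCT-Fer-1 3, and 3 without MCT-Fer-1 2 or Control 3) and 977 to 1714 genes. The labels do not say whether equal replicate numbers share a batch or day. After group means were taken off, same-numbered libraries correlated at r of -0.063 to 0.102. Of 12 libraries 4 correlated best with their own number, and these values cannot exclude a pairing. With the replicate number as a block 14 members were called in MCT-vehicle against Control. They were the 10 reported with Hspa8, Hspa12b, Hspb1 and Dnajb5. In MCT-Fer-1 against Control 5 were called with that block. With 4 libraries per group, Dnajc6, Hspb7, Hspa1b and Dnajb3 had the largest SE in MCT-vehicle against Control (0.64, 0.43, 0.35 and 0.32).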
